A study of Salmo salar with 51 samples.

Results

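Probes for 3 early embryo regulators, Eomes (C227R049), pou5f1 (C242R122) and homeobox pv.1 (C230R096), were followed through the development of Atlantic salmon, and the days on which their signals appeared and disappeared were compared. The probes were chosen by name, as 3 of the 43689 probes of a 44K salmonid oligonucleotide array. The names were taken from the study's lists of probes called changed between neighbouring days on these same arrays. The calls of the 3 probes below are therefore not independent of those lists. Whole individuals of the McConnell (Mowi) strain were sampled 2, 5, 10, 15, 20, 25, 30, 35, 41, 47, 53, 59, 65, 71, 77, 83 and 89 days post fertilization (dpf), with 3 untreated individuals on each of the 17 days, and each of the 51 individuals was hybridized to 1 array. The stages given for 2, 5 and 10 dpf are blastulation, gastrulation and somitogenesis, and the 9 time points from 41 dpf on (27 arrays) lie after hatching. RNA of each individual carried Cy5, and the same pool of all time points, in which 2 dpf had a smaller share than the other days, carried Cy3 on every array without a dye swap, so that a log2 ratio of Cy5 to Cy3 sets an individual against the pool.

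All 3 genes encode transcription factors. Eomesodermin is a T-box factor that takes part in specifying mesoderm and endoderm in vertebrate embryos, pou5f1 is a POU factor known in mammals as Oct4 for its role in pluripotent cells, and the pv.1 protein is a homeobox repressor that acts in ventral patterning downstream of BMP signals in Xenopus. Fish and frog eggs hold maternal RNA for the first divisions, and transcription from the embryo's own genome begins during the blastula stage. The salmonid lineage underwent a duplication of its whole genome, so several copies of such a gene can exist. Which copy a probe reads was not determined here, and the 3 names come from matches to public databases.

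Each array is the RNA of 1 whole organism, so that fewer cells of a type and less RNA per cell cannot be told apart. Array medians of the Cy5 signal were between 124.5 and 203 at 2 dpf, between 262 and 382.5 at 5 dpf, between 348 and 544 at 10 dpf and between 160 and 601 on the later days. RNA was limited at 2, 5 and 10 dpf, and extraction and labelling were repeated there. Stage markers were checked in the same arrays. The summed signal of 3 probes for muscle and heart myosins lay between 332 and 701.5 at 2 dpf, between 636 and 1397 at 5 and 10 dpf and between 1488 and 46041.5 on the arrays from 15 dpf on. That of 14 crystallin probes for the lens was at most 5226 at 2 dpf and at least 12060 from 15 dpf on. At 5 and 10 dpf it lay between 4283 and 13245, which overlaps both. At 2 dpf the summed signals of zona pellucida and cyclin-B probes, named as maternal markers, lay within their range from 15 dpf on, and that of hemoglobin probes lay below it.

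The Cy5 signal of the Eomes probe, in the scanner's linear units after background correction, was 26, 121 and 73 on the arrays of the 3 individuals at 2 dpf. At 5 dpf it was 26626.5, 4926 and 6884, and at 10 dpf 334.5, 255 and 556. All 3 gastrulae were thus far above every other individual of the series, and 1 individual at 10 dpf was the only other one at or above 500, the minimum signal used here. From 15 dpf to 89 dpf the 42 arrays had between 12 and 326, with a median of 141.25. At 15 dpf the log2 ratios to the pool were -2.10, -1.29 and -2.51.

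The pou5f1 signal was 243.5, 340.5 and 284.5 at 2 dpf, 4737, 1248.5 and 2633.5 at 5 dpf, and 317, 331 and 447.5 at 10 dpf. The 3 arrays of 5 dpf were the only ones at or above 500. From 15 dpf to 89 dpf the signal lay between 63 and 382, with a median of 236, which takes in the range of 2 dpf. Its log2 ratios at 15 dpf were -0.55, -0.07 and -0.48.

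The pv.1 probe was dark at 2 dpf as well, with 155, 107 and 96.5. At 5 dpf it read 64985.5, 31971.5 and 43562. The first of these spots was flagged in the scanner file and stands near the top of the scanner's scale, and it was left out of the fits. Unlike the other probes, pv.1 stayed bright at 10 dpf, with 15198.5, 8311 and 8522.5, and was still above 500 on every array of 15 dpf, with 541, 859.5 and 1259.5. At 20 dpf it had 252, 222 and 920, at 25 dpf 563.5, 133 and 611, and from 30 dpf on no array reached 500.

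**Figure D1:**
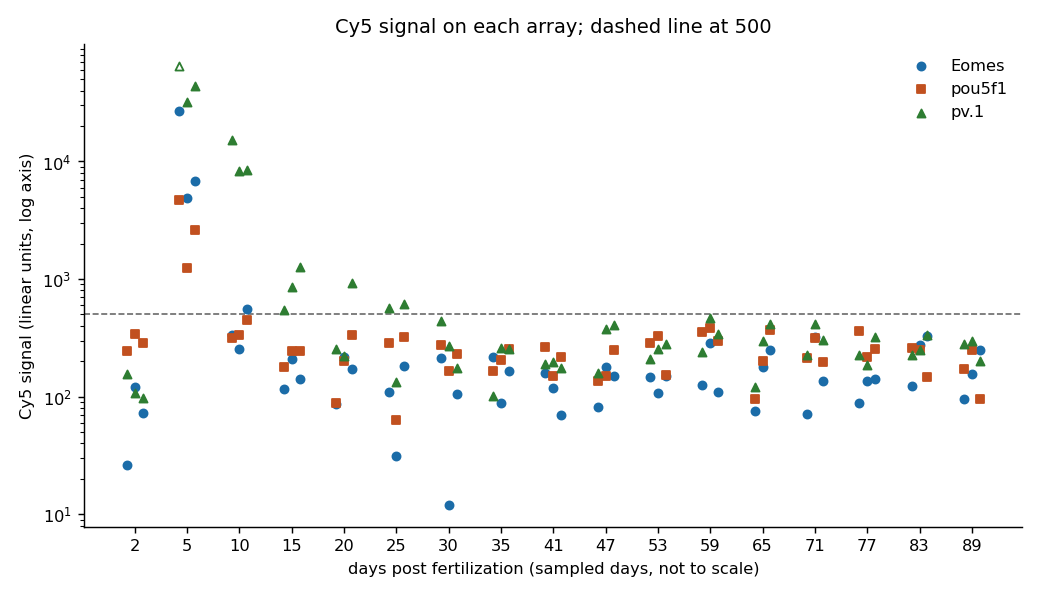
Cy5 signal of the Eomes, pou5f1 and pv.1 probes on each of the 51 arrays (linear units on a log axis) by sampled day, with 1 point per individual, an open symbol for the flagged spot and a dashed line at 500. The points of all 3 probes stand above the line at 5 dpf, and at 10 and 15 dpf all 3 points of pv.1 do, against 1 and 0 of Eomes and 0 and 0 of pou5f1.

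Onset was set as the first day on which each of the 3 arrays reached 500 in Cy5 without a flag, and shut-off as the first time point after that run at which all 3 arrays were under 500. By this rule Eomes and pou5f1 both had their onset at 5 dpf, and no sampled day separates them. The rule takes signals as read, and array medians were at most 203 at 2 dpf and at least 262 at 5 dpf. It cannot show whether pou5f1 was already present at 2 dpf. After normalization between arrays, the mean log2 Cy5 at 2 dpf was 9.28 for pou5f1 and 6.83 for Eomes. The onset of pv.1 fell at 10 dpf only because of the flagged spot, and at 5 dpf when flags were ignored, an alternative chosen after seeing the data, or when 2 of 3 arrays were required. Shut-off came at 10 dpf for pou5f1, at 15 dpf for Eomes, with 10 dpf mixed because of the 1 array at 556, and at 30 dpf for pv.1, with 20 and 25 dpf mixed. The order of pou5f1 and Eomes rests on that array and on the threshold. With 1000 in place of 500 both were shut off at 10 dpf, and pv.1 at 20 dpf, whereas with 300 pou5f1 and Eomes were both shut off at 15 dpf and pv.1 at 35 dpf. In each of these settings pv.1 was the last to pass under the threshold. This order can depend on how bright each probe is, and the part of brightness in it was not tested. After a like fall, a probe that starts brighter stays above a fixed signal for longer. At 5 dpf pv.1 read at least 31971.5, Eomes at most 26626.5 and pou5f1 at most 4737. The days of shut-off are therefore days of a signal under the threshold and do not by themselves order the loss of the 3 transcripts.

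Changes between neighbouring days were tested with limma on loess-normalized log2 ratios of all 51 arrays. A probe was called changed at a Benjamini-Hochberg adjusted p under 0.05 over all tested probes together with a fold change of at least 2. Tested were the probes that reached 500, unflagged, on all 3 arrays of at least 1 day. Eomes and pou5f1 did so at 5 dpf alone, so that a bright signal on that day was a condition of their tests. The log2 changes below are later minus earlier day, with the standard error (SE) of the fit and n = 3 individuals a day. Where every array of 1 of the 2 days was under 500, the fold change is only bounded, and the bound takes the higher of the dim signal and the lowest signal of at least 500 on each array, from Cy5 values that were normalized between arrays and may carry dye bias, because no dyes were swapped.

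From 2 to 5 dpf all 3 probes rose. Eomes had a mean log2 ratio of 3.21 ± 0.97 (SD) at 5 dpf and -2.17 ± 0.90 at 2 dpf, a change of 5.38 (SE 0.75, limma adjusted p = 1.43e-07), and was at least 8.99-fold higher. pv.1 had 3.72 ± 0.26 at 5 dpf, over 2 arrays, and -2.62 ± 0.34 at 2 dpf, a change of 6.34 (SE 0.41, limma adjusted p = 1.39e-15). It was at least 46.1-fold higher by the bound, which takes all 3 arrays of 5 dpf and so includes the flagged spot. pou5f1 had 2.82 ± 0.31 at 5 dpf and 1.19 ± 0.22 at 2 dpf, a change of 1.63 (SE 0.52, limma adjusted p = 0.00908), and was at least 2.50-fold higher. The individuals of the 2 days did not overlap for any of the 3 probes, but the share of all probes without overlap is not given here. Over all probes, 20.0% were called higher at 5 than at 2 dpf, so that a rise as such was common.

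The rise of pou5f1 is the least firm of these. Without the second individual of every time point it was 1.51 with an adjusted p of 0.0821. The probe's Cy3 signal never exceeded 401 on any array, with a median of 267, so the ratio of pou5f1 rests on a dim pool. Array brightness, higher at 5 than at 2 dpf, moved with the step, and its part in the result was not tested. On the only slide that held both days, with 2 individuals of 5 dpf and 1 of 2 dpf, the changes were 4.28 for Eomes, 1.25 for pou5f1 and 6.53 for pv.1.

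From 5 to 10 dpf all 3 probes fell. Eomes averaged -1.66 ± 0.66 at 10 dpf, a change of -4.87 (SE 0.75, limma adjusted p = 2.91e-06). pou5f1 averaged -0.58 ± 0.59 at 10 dpf, a change of -3.40 (SE 0.52, limma adjusted p = 2.69e-06), and was at least 9.45-fold lower than at 5 dpf. pv.1 averaged 0.89 ± 0.59 at 10 dpf, a change of -2.83 (SE 0.41, limma adjusted p = 1.24e-06). A fall of this kind was called for 8.47% of all probes, and that of pv.1, the only one of the 3 with all arrays of 10 dpf over 500, was the 121st largest of 20686. The call of pv.1 was lost with the methods' t-test after Benjamini-Hochberg adjustment (adjusted p = 0.0545). No slide held arrays of both days. No bound was set for Eomes at 10 dpf, where 1 array was over 500, but at 15 dpf it was at least 20.7-fold lower than at 5 dpf.

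From 10 to 15 dpf only pv.1 was called of the 3. It averaged -1.45 ± 0.31 at 15 dpf and 0.89 ± 0.59 at 10 dpf, a change of -2.34 (SE 0.37, limma adjusted p = 1.30e-05), whereas 2.64% of all probes were called lower. It was the 53rd largest fall of 20690, and no slide held arrays of both days. With the methods' t-test after Benjamini-Hochberg adjustment this call was lost as well (adjusted p = 0.179). That setting called only 4 of all probes in this step, so the loss is not particular to pv.1. Eomes changed by -0.31 (SE 0.75, limma adjusted p = 0.832) and pou5f1 by 0.21 (SE 0.52, limma adjusted p = 0.833). From 15 to 20 dpf none of the 3 was called, while 1.43% of all probes were. The log2 ratio of pv.1 changed by -1.19 (SE 0.37), with an unadjusted limma p of 0.00254 and a limma adjusted p of 0.114. Its Cy5 signals of the 2 days overlapped, with 920 on 1 array of 20 dpf and 541 and 859.5 on arrays of 15 dpf. Eomes changed by -0.00 (SE 0.75) and pou5f1 by -0.39 (SE 0.52) in this step. On the only slide that held both days, with 1 individual of each, the changes were -1.21 for Eomes, -1.40 for pou5f1 and -1.41 for pv.1. In the 12 steps between 20 and 89 dpf, 0 changes were called for each of the 3 probes with limma, while 2.71% of all probes were called in at least 1 of these steps. At an unadjusted limma p under 0.05 the count was 0 for each as well, and the methods' t-test called 1 of these steps for Eomes and 0 for pou5f1 and pv.1.

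**Figure D2:**
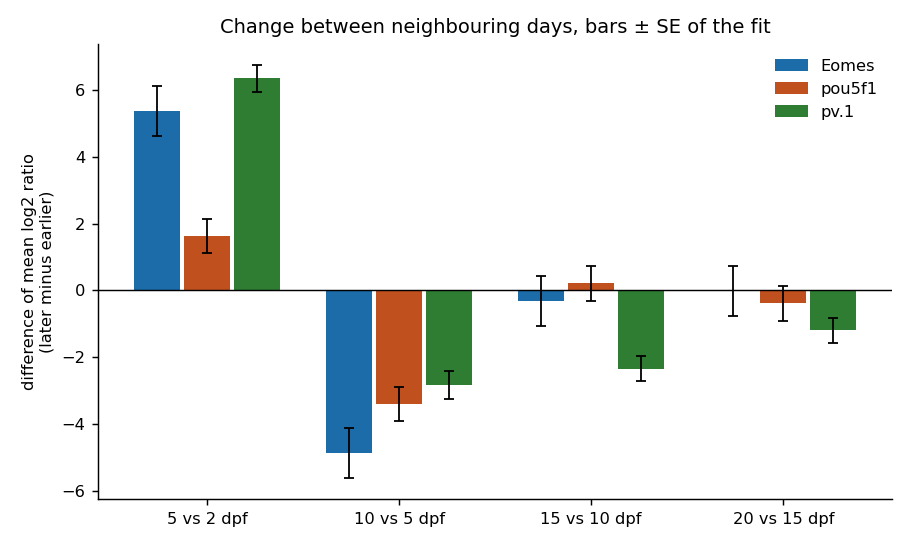
Change of the mean log2 ratio between neighbouring days (later minus earlier) for Eomes, pou5f1 and pv.1, with bars for the fitted difference and error bars for its SE. All 3 bars point up at 5 against 2 dpf and down at 10 against 5 dpf, and at 15 against 10 dpf only pv.1 has a called change, of -2.34.

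Whether the probes changed by different amounts was tested on the difference of their log2 ratios on the same array, in the same fit and with p adjusted over the whole table. Among 6 pairs of probes in the first 4 steps, 24 such tests were made. All 3 probes were under 500 on every array of 2 dpf, so that their rises at 5 dpf are only bounded and the differences below compare measured ratios without ranking the rises. Eomes minus pou5f1 gave 3.75 (SE 0.73, limma adjusted p = 4.44e-05) and pou5f1 minus pv.1 -4.84 (SE 0.51, limma adjusted p = 2.94e-10). Eomes minus pv.1 gave -1.51 (SE 0.81, limma adjusted p = 0.122), which passed the threshold in other settings: with signals raised to at least 100 it was -2.59 (adjusted p = 5.07e-04), and without the 2 dpf individual whose Eomes signal was 26 it was -2.22 (adjusted p = 0.0328). The falls at 10 dpf were not separated, with 0 of the 6 pairs called by limma and 1 at an unadjusted p under 0.05. There pou5f1 was under 500 on all 3 arrays and Eomes on all but 1, which limits how large their falls could be measured. The lack of a call therefore does not show that the falls were alike. Eomes minus pou5f1 was -1.47 (SE 0.73, adjusted p = 0.138), Eomes minus pv.1 -1.49 (SE 0.81, adjusted p = 0.183) and pou5f1 minus pv.1 -0.43 (SE 0.51, adjusted p = 0.587), all from limma. Every pair with pv.1 left out the 5 dpf array of the flagged spot, on which Eomes read 26626.5. At 5 and 10 dpf these pair values therefore do not equal the differences of the separate changes. With flagged spots kept, Eomes minus pv.1 at 10 dpf was -2.10 and was called.

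At 15 against 10 dpf pou5f1 minus pv.1 was 2.55 (SE 0.45, limma adjusted p = 8.44e-05), where pou5f1 was under 500 on all arrays of both days. The same difference for Eomes and pv.1 was 2.03 (SE 0.72, limma adjusted p = 0.0530) and passed the threshold at 2.73 (adjusted p = 0.0190) when the 10 dpf individual with an Eomes signal of 556 was left out. In the step to 20 dpf limma called 0 of the 6 pairs, with 1 at an unadjusted p under 0.05.

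Each early day was then set against the level after hatching, the mean of the 9 time points from 41 to 89 dpf. Eomes and pou5f1 were tested only because they reached 500 at 5 dpf, and pv.1 because it did at 10 and 15 dpf. Their calls on those days are not independent of that condition. For Eomes only 5 dpf of the 8 days from 2 to 35 dpf was called, with 5.21 (SE 0.56, limma adjusted p = 8.84e-11). For pou5f1 it was 5 dpf, with 3.23 (SE 0.39, limma adjusted p = 1.51e-09), and 2 dpf, with 1.59 (SE 0.39, limma adjusted p = 3.31e-04). For pv.1 it was 5, 10 and 15 dpf, with 6.59 (SE 0.33), 3.76 (SE 0.28) and 1.42 (SE 0.28), and limma adjusted p of 3.54e-20, 4.67e-15 and 4.89e-05. Calls in either direction covered 60.9%, 54.1%, 42.7% and 28.4% of all probes at 2, 5, 10 and 15 dpf in this order, and 27.8% of them on at least 1 of the 4 days from 20 to 35 dpf.

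The call of pou5f1 at 2 dpf rests on dim signals. They were under 500 in both groups, between 243.5 and 340.5 at 2 dpf and between 94.5 and 382 on the 27 later arrays, so that the groups overlapped in Cy5 and no fold change is given. Array medians were between 124.5 and 203 at 2 dpf and between 160 and 601 from 15 dpf on, and the part of array brightness in this ratio was not tested. In 15 tests of the differences between the probes, a comparison chosen after seeing the data, the measured ratios at 2 dpf gave 1.35 for pou5f1 minus pv.1 (SE 0.34, limma adjusted p = 4.97e-04) and -1.76 for Eomes minus pou5f1 (SE 0.54, limma adjusted p = 0.00351), all of them under 500. The Eomes value missed the threshold without the first individual of 2 dpf, where it was -1.29 (adjusted p = 0.0715), with signals raised to at least 100, where it was -0.94 (adjusted p = 0.0553), and with the slide as a fixed block, where it was -1.23 (adjusted p = 0.108).

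The ratio of pv.1 stood above its own later level at 10 dpf by more than those of the other probes did, which were under 500 there on all arrays but 1. At 10 dpf, relative to the level after hatching, Eomes minus pv.1 was -3.42 (SE 0.54, limma adjusted p = 8.25e-07) and pou5f1 minus pv.1 -3.93 (SE 0.34, limma adjusted p = 4.66e-13), whereas Eomes minus pou5f1 was 0.51 (SE 0.54, limma adjusted p = 0.419). At 15 dpf pou5f1 minus pv.1 was -1.38 (SE 0.34, limma adjusted p = 9.01e-04) and Eomes minus pv.1 -1.39 (SE 0.54, limma adjusted p = 0.0327). Neither held with the slide as a fixed block, where pou5f1 minus pv.1 was -0.99 (adjusted p = 0.0538) and Eomes minus pv.1 -1.35 (adjusted p = 0.0751). Eomes minus pv.1 also missed the threshold without either of 2 individuals of 15 dpf, with -1.25 (adjusted p = 0.132) without the first and -1.29 (adjusted p = 0.117) without the third.

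**Figure D3:**
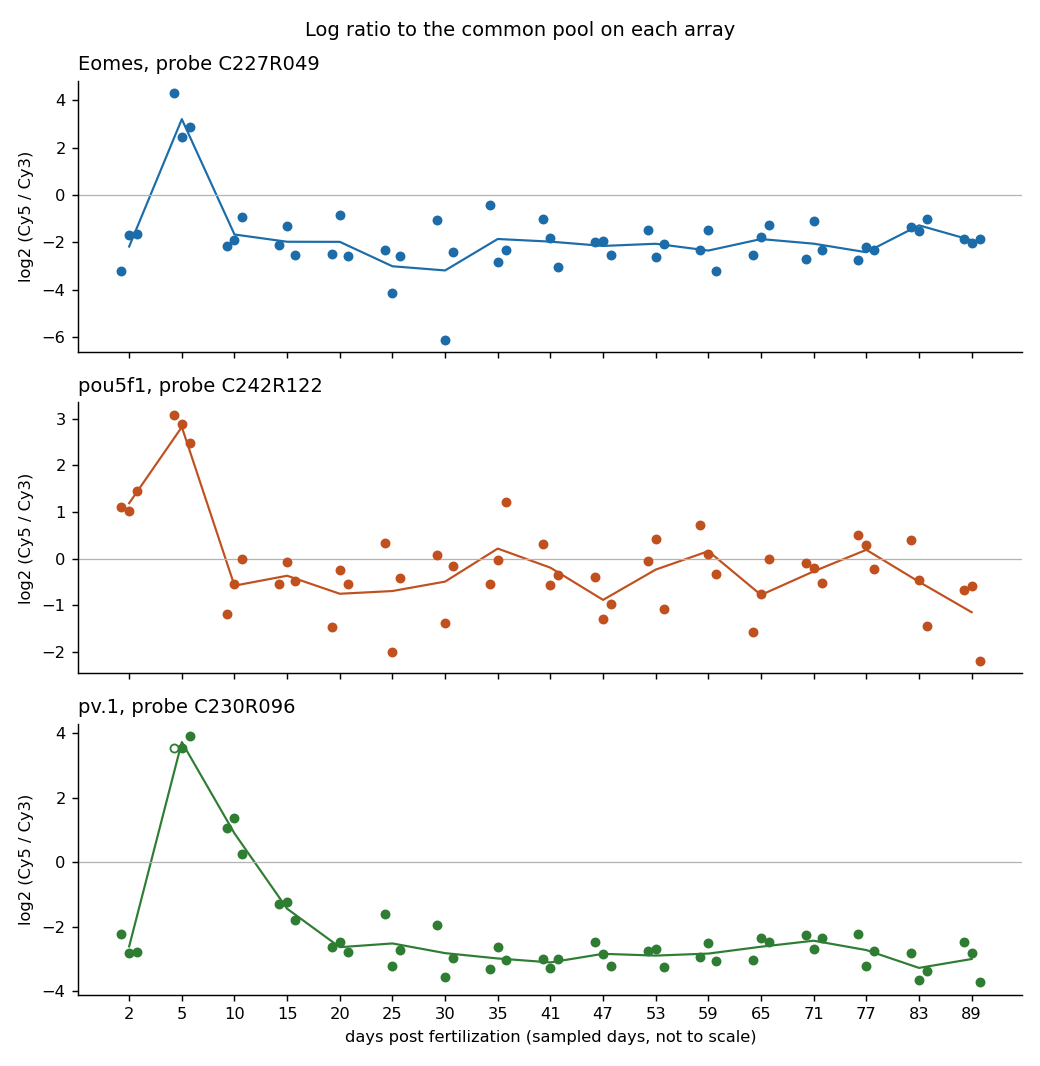
Log2 ratio of Cy5 to Cy3 of Eomes, pou5f1 and pv.1 on each array by sampled day, with 1 point per individual, an open point for the flagged spot and a line through the means of unflagged values. The mean of pv.1 falls over 3 sampled days, with 3.72 at 5 dpf, 0.89 at 10 dpf and -1.45 at 15 dpf, while Eomes is at -1.66 and pou5f1 at -0.58 at 10 dpf.

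After hatching the 3 probes showed no called change. The F test over the 9 time points from 41 to 89 dpf gave limma adjusted p of 0.962 for Eomes, 0.376 for pou5f1 and 0.695 for pv.1, and was passed by 13.6% of all probes. Cy5 signals there lay between 69.5 and 326 with a median of 140 for Eomes, between 94.5 and 382 with a median of 249 for pou5f1, and between 119.5 and 462.5 with a median of 255 for pv.1. At 77, 83 and 89 dpf none of the 3 was called against the mean of 41 to 71 dpf, while 1.70%, 7.56% and 2.97% of all probes were. Over all 17 time points the F test was passed by each of the 3, with adjusted p of 1.19e-06 for Eomes, 1.65e-06 for pou5f1 and 6.57e-18 for pv.1, but also by 87.1% of all probes.

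A further pair of probes carries the name eomesodermin, and their course was different at the start. EOMES (C106R123) read 3765, 4761 and 4593 at 2 dpf, 4396, 2178 and 2385.5 at 5 dpf and 593.5, 366.5 and 498.5 at 10 dpf. The probe eomes (C205R097) read 8164, 8655.5 and 8736 at 2 dpf, 9129, 4214 and 3781 at 5 dpf and 922.5, 411 and 653 at 10 dpf. Both were bright in blastulae, where C227R049 had at most 121, and their signals at 5 dpf overlapped those at 2 dpf.

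In the ratios both were lower at 5 than at 2 dpf, and the part of the brighter arrays of 5 dpf in this was not tested. The change was -2.55 (SE 0.39, limma adjusted p = 9.35e-07) for EOMES and -2.68 (SE 0.42, limma adjusted p = 1.64e-06) for eomes. The change of C227R049 exceeded theirs by 7.93 (SE 0.81, limma adjusted p = 1.26e-10) and 8.06 (SE 0.75, limma adjusted p = 1.31e-11). On the slide with both days the changes were -2.76 for EOMES and -2.83 for eomes, against 4.28 for C227R049. From 5 to 10 dpf all 3 eomesodermin probes fell, EOMES by 3.35 and eomes by 3.90 on the log2 scale. No difference from C227R049 was called, but that probe was under 500 on all but 1 array of 10 dpf, which limits the comparison. Over the 17 time point means EOMES and eomes had a correlation of 0.96, while C227R049 had 0.35 with each, as a description over time points that share their arrays. EOMES also varied after hatching by the F test (limma adjusted p = 0.0283), as did 13.6% of all probes, whereas eomes did not pass (limma adjusted p = 0.101).

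The vent1 probe (C248R071), for another homeobox repressor of the ventral side in Xenopus, followed pv.1 up to 10 dpf. Its signals were 63, 101.5 and 164.5 at 2 dpf, 25126, 12767 and 19449 at 5 dpf, 7462, 4021 and 4525 at 10 dpf and 81, 107.5 and 213 at 15 dpf. It was thus as dark at 15 dpf as at 2 dpf, whereas pv.1 still read at least 541 on every array. The vent1 ratio rose by 5.44 at 5 dpf (SE 0.49, limma adjusted p = 6.67e-12), changed by -2.37 at 10 dpf (SE 0.49, limma adjusted p = 3.14e-04) and by -4.31 at 15 dpf (SE 0.49, limma adjusted p = 1.99e-08), when it was at least 5.55-fold lower than at 10 dpf. Its rise at 5 dpf is bounded at 16.9-fold or more, because every array of 2 dpf was under 500.

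The changes of pv.1 and vent1 were not separated at 5 dpf (pv.1 minus vent1 0.95, SE 0.62, limma adjusted p = 0.207) or at 10 dpf (-0.52, SE 0.62, limma adjusted p = 0.595). At 15 dpf the measured ratio of vent1 fell further, with a called pv.1 minus vent1 difference of 1.97 (SE 0.55, limma adjusted p = 0.0125). There vent1 was under 500 on all 3 arrays, so that its fall is only bounded and the difference compares measured ratios. That call was lost without the first individual of 15 dpf (1.71, adjusted p = 0.0928) and without the first or the second individual of every day (1.67, adjusted p = 0.120, and 2.04, adjusted p = 0.0962). Over the 17 time point means pv.1 and vent1 had a correlation of 0.93, and of 0.76 without 5 dpf.

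**Figure D4:**
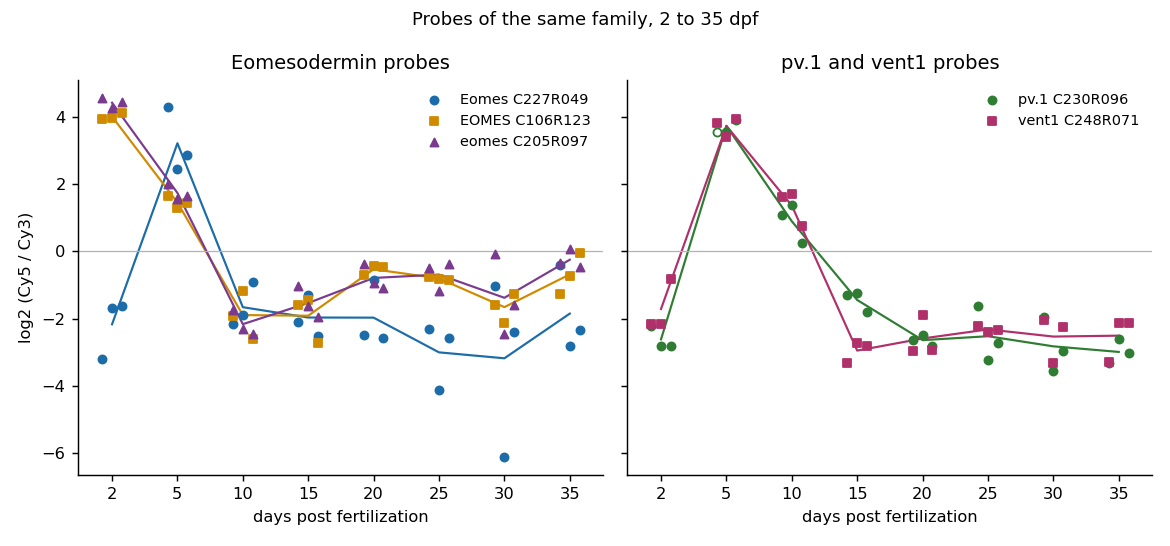
Log2 ratio of Cy5 to Cy3 from 2 to 35 dpf for the 3 eomesodermin probes (left) and for pv.1 and vent1 (right), with 1 point per individual, an open point for the flagged spot and lines through the means of unflagged values. At 2 dpf the EOMES and eomes points lie at 3.93 and above and the points of C227R049 at -1.62 and below, and at 15 dpf all 3 points of vent1 lie under those of pv.1.

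The 3 probes were set beside a list of 37 probes for early patterning genes, among them EOMES, eomes and vent1. The list was drawn from annotations of probes that the study had called changed on these arrays, so its counts are not independent evidence. Of the list, 34 were tested and 3 (hoxb1, BMP2 and Sostdc1) did not pass the filter. BMP2 and Sostdc1 were too dim, whereas hoxb1 read at least 777 on all 3 arrays of 10 dpf, of which only 2 were unflagged. From 2 to 5 dpf 15 were called higher and 10 lower, with a median change of 0.82, against 20.0% and 19.8% of all probes and a median of -0.10. GATA6, an endoderm factor, rose by 6.23, vent1 by 5.44 and the Wnt antagonist SFRP5 by 5.23, while eomes changed by -2.68, EOMES by -2.55 and sox3 (C132R131), a factor of early neural tissue, by -2.42. GATA6, vent1 and SFRP5 were under 500 on all arrays of 2 dpf, so that their rises are only bounded. The bounds were at least 37.1-fold for GATA6, with a flagged spot of 5 dpf taken in, 16.9-fold for vent1 and 6.12-fold for SFRP5.

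From 5 to 10 dpf 12 were called higher and 8 lower, against 11.9% and 8.47% of all probes, and the medians were -0.20 for the list and -0.02 for all probes. Twist2, a mesenchymal factor, rose by 4.73, gata4, a factor of heart and endoderm, by 4.46 and shha, the sonic hedgehog ligand of midline tissue, by 4.44. All 3 were under 500 on every array of 5 dpf, and their rises are bounded at 7.65-fold, 11.4-fold and 6.40-fold or more. The called falls were led by eomes with -3.90, EOMES with -3.35 and vent1 with -2.37. MIXL1, a mesendoderm homeobox factor, had -3.40 and was not called (SE 1.496, limma adjusted p = 0.0926). From 10 to 15 dpf 0 were called higher (2 at an unadjusted limma p under 0.05) and 6 lower by limma, where 9.31% and 2.64% of all probes were, with medians of -0.41 for the list and 0.09 for all probes. These 6 were vent1 with -4.31, SFRP5 with -3.40, cdx1 (C239R059), a homeobox factor of the posterior body, with -2.85, GATA6 with -2.001, g12 (C200R120) with -1.92 and KLF4, which in mammals acts in pluripotent cells, with -1.67. On all arrays of 15 dpf vent1, SFRP5 and cdx1 were under 500. Their falls are bounded at 5.55-fold, 6.27-fold and 4.09-fold or more. In the next step cdx1 alone was called, with -1.85, where 0.110% of all probes were called lower. Its signal was under 500 on all arrays of both days of that step. This call therefore rests on dim signals, and no fold change is given.

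A called rise at 5 dpf followed by a called fall at 10 dpf was shared by Eomes, pou5f1 and pv.1. Eomes and pou5f1 passed the filter on dim probes only through 5 dpf, so that their pulse is not independent of that filter. Such a pulse held for 345 of the 20685 probes tested in both steps, or 1.67%, and for 5 of the 34 tested list probes. These were vent1, snai1 (C240R148), a repressor active in gastrulating mesoderm, otx2, a factor of the anterior head, Grhl3, a factor of surface epithelium, and Tbx15, a T-box factor. Their falls at 10 dpf lay between -2.37 for vent1 and -1.09 for snai1, against -4.87 for Eomes, -3.40 for pou5f1 and -2.83 for pv.1, and no test was made of these differences beyond that of vent1. The other snai1 probe of the list (C188R086) was called in neither step. It changed by 0.70 at 5 dpf (limma adjusted p = 0.173) and by -1.06 at 10 dpf (limma adjusted p = 0.0599).

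**Figure D5:**
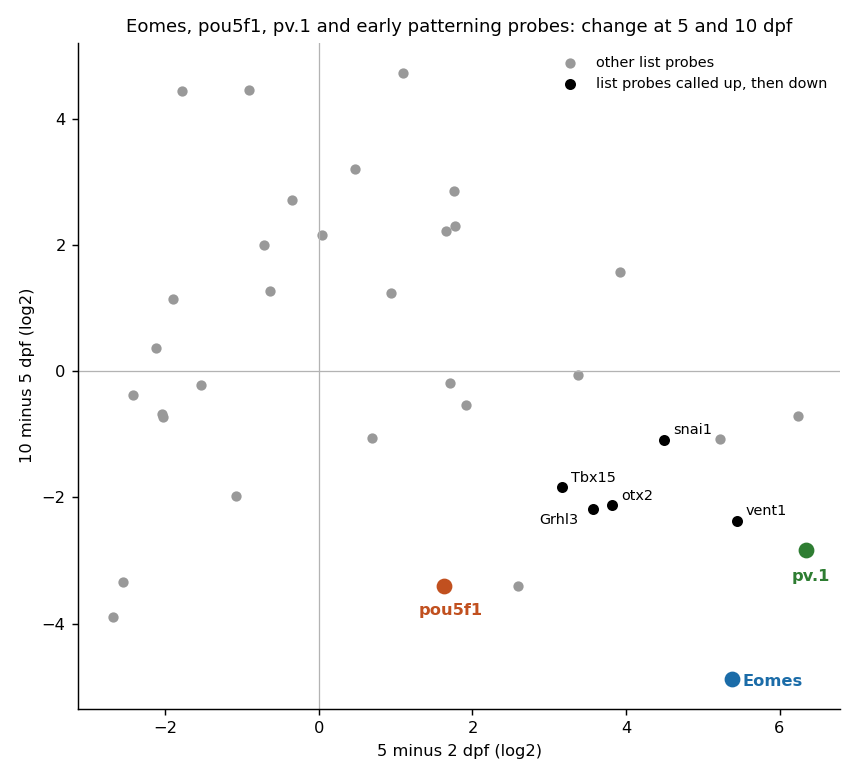
Change at 5 against 2 dpf (horizontal axis) and at 10 against 5 dpf (vertical axis) of the mean log2 ratio, for Eomes, pou5f1, pv.1 and the 34 tested probes of the early patterning list, with list probes called up and then down in black. Eomes, with 5.38 and -4.87, and pv.1, with 6.34 and -2.83, lie at the lower right, and pou5f1, with 1.63 and -3.40, lies further to the left.

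The annotated probes whose 17 means were most like those of Eomes, pou5f1 and pv.1 were found among 3925 tested probes with a gene name, as a description. For Eomes they were CPI17 (r = 0.91), sf3b1 (0.90), CCDC122 (0.88), Slc7a7 (0.88) and Rpp30 (0.87). For pou5f1 they were 3 probes of SAT1 (0.88, 0.87 and 0.85), LASS5 (0.85) and Fut7 (0.85). For pv.1 they were 2 probes of EIF1AX (0.95 and 0.95), ddx55 (0.95), Slc7a7 (0.94) and SFRS2 (0.94). Without 5 dpf the values were between 0.10 and 0.49 for Eomes, between 0.54 and 0.70 for pou5f1 and between 0.76 and 0.85 for pv.1, so that the likeness to Eomes rested mostly on that 1 day. Among themselves the 3 had correlations of 0.83 for Eomes and pv.1, 0.76 for Eomes and pou5f1 and 0.66 for pou5f1 and pv.1, and of 0.17, -0.07 and -0.10 without 5 dpf.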

How the data were processed

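The authors quantified the scanned arrays with ImaGene and deposited, for every spot and channel, a median intensity from which background had been taken, along with spot flags. The method of that correction is not stated in the sources used here. They also deposited log2 ratios made in GeneSpring (Lowess, each probe centred on its median over all samples), whose scale and direction were checked against the intensities (per-array correlation across probes of 0.836 to 0.989, column medians of -0.036 to 0.027).

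From the intensities, signals below 1 were set to 1, loess was applied to the log2 ratio (Cy5 over Cy3) of each array, flagged spots were given weight 0 and controls dropped. The 20964 probes that reached 500 in Cy5, unflagged, on each of the 3 arrays of some time point were fitted with limma 3.58.1 in R 4.3.3, with 1 mean per time point over 51 arrays. Figures were drawn in Python 3.11.15 with matplotlib 3.10.9. The fit was tested on simulated data. Groups were taken from the labels. Arrays have no sequencing depth, and their number limits the precision. The probes and lists were chosen with earlier results of these data known. Named list probes are called ones, except MIXL1, the snai1 probe C188R086 and the 3 untested probes. At least the 3 largest called changes in each direction are named for the first 3 steps, but no rise was called at 15 dpf. The most similar probes are the 5 with the highest Pearson r. Replicate numbers were not used as a block. The correlation of deviations was above 0.1 in 12 of 48 pairs of neighbouring days and at most 0.32. The slide was not a block in the main fit either. The consensus correlation within slides was 0.146, and slide blocks were run as alternatives. The alternatives were other normalizations, floors, filters and thresholds, flagged spots kept, the authors' deposited values, limma on 6 arrays, the methods' t-test, replicate and slide blocks, and arrays left out. Probes are named from the Additional files, of which the first was at hand in part.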

Additional observations from a re-analysis of the deposited data

How the results depend on the processing

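Of 892 alternative values for 58 results, 838 kept their direction and their side of the threshold. The rises at 5 dpf and falls at 10 dpf of the 3 probes kept their direction in every alternative run. Below, a change at a day is against the sampled day before it. With the methods' t-test after Benjamini-Hochberg adjustment, pv.1 no longer passed at 10 dpf (-2.83) or 15 dpf (-2.34). In these steps that setting called 1615 and 4 of all probes. Unadjusted, the same t-test called the pv.1 change at 20 dpf (-1.19) and 1 later step of Eomes. Cy5 alone with quantile normalization called Eomes minus pou5f1 (-2.06) and Eomes minus EOMES (-2.16) at 10 dpf and Eomes minus pv.1 at 5 dpf (-2.16), and turned the pou5f1 change at 15 dpf (-0.38) and pou5f1 minus pv.1 at 10 dpf (0.71). Median centring, which shifted the median of all probes at 5 dpf to 0.43, against -0.10 with loess, called Eomes minus pv.1 at 5 dpf (-2.03) and 15 dpf (2.62). A floor of 100 called Eomes minus pv.1 at 5 dpf (-2.59) and 15 dpf (2.05) and pv.1 minus vent1 at 5 dpf (1.34), and lost Eomes minus pou5f1 at 2 dpf against the level after hatching (-0.94). Keeping flagged spots called Eomes minus pv.1 at 10 dpf (-2.10). Without a filter on dim probes, Eomes minus pv.1 at 15 dpf against the level after hatching (-1.39) was lost.

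With the slide as a fixed block, Eomes minus pv.1 (-2.25) and pv.1 minus vent1 (1.63) were called at 5 dpf, pou5f1 minus pv.1 at 10 dpf turned (0.42), and against the level after hatching Eomes minus pou5f1 at 2 dpf (-1.23) and Eomes minus pv.1 (-1.35) and pou5f1 minus pv.1 (-0.99) at 15 dpf were lost. The change of Eomes at 20 dpf, of -0.00, turned with Cy5 alone (0.30), the floor of 100 (0.060), and the slide as a fixed (0.42) or random block (0.15). With the replicate number as a block, the changes at 5 dpf were 5.38 for Eomes, 1.63 for pou5f1 and 6.46 for pv.1, and no call changed.

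Shut-off moved with a threshold of 300 to 15 dpf for pou5f1 and 35 dpf for pv.1, and with 1000 to 10 dpf for Eomes and 20 dpf for pv.1, and the onset of pv.1 was 5 dpf with 2 of 3 arrays or with flags ignored.

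With arrays left out, the changes at 15 dpf ranged from -0.77 to 0.34 for Eomes and from -0.091 to 0.55 for pou5f1, that of Eomes at 20 dpf from -0.56 to 0.34, and that of pou5f1 at 5 dpf from 1.46 to 1.92. Eomes minus pv.1 ranged from -2.22 to -1.14 at 5 dpf and from 1.43 to 2.82 at 15 dpf, pou5f1 minus pv.1 from -1.43 to 0.18 at 10 dpf and pv.1 minus vent1 from 1.67 to 2.22 at 15 dpf. Against the level after hatching, Eomes minus pou5f1 ranged from -2.09 to -1.29 at 2 dpf and Eomes minus pv.1 from -1.62 to -1.25 at 15 dpf. The cause of these changes was not tested. Signals of all 3 probes under 500 outside their bright days limit what could be seen there, as does the interval of 3 to 6 days between samples.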
